A study of Homo sapiens with 12 samples.

Results

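The genes described here are the TGFβ ligands and the proteins that keep them latent or process them, taken as the rows of both deposited clone tables with the symbols TGFB1, TGFB2, TGFB3, LTBP1, LTBP2, LTBP3, LTBP4, THBS1, THBS3 and FURIN. All 10 were found in both tables, among 15612 genes in the table of clone 1 and 16848 in that of clone 2. The data are RNA-seq libraries of RCH-ACV, an established human B-cell precursor acute lymphoblastic leukemia line that expresses the pre-B-cell receptor. The 12 libraries came from 4 groups of 3, namely dasatinib-resistant cells of clone 1 and of clone 2, grown in rising doses of dasatinib up to 1 µM, and the dasatinib-sensitive cells of clone 1 and of clone 2, grown in 0.1% DMSO. Dasatinib inhibits SRC and ABL family kinases. Within a group the 3 libraries hold RNA taken from 1 subline on different occasions, each resistant subline is a single derivation, and resistant cells were sampled in the drug, so resistance and exposure cannot be told apart in this design.

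The value used for each gene is the mean normalized count, the authors' mean over the 6 libraries of a clone after division by size factors. It pools resistant and sensitive cells, so levels of the line are described here and the effect of resistance was not analysed. A pooled mean carries no replicate spread, and no SD, interval or p-value belongs to any value below. The depth of single libraries is unknown. The summed means were 19108037 in clone 1 and 24561485 in clone 2, and the median gene had 406 and 442 normalized counts. The tables were normalized separately and end at different floors, with a lowest listed mean of 2.52 in clone 1 and 1.13 in clone 2, so a gene missing from a table is described only as not listed.

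TGFβ is made as a precursor that FURIN, a proprotein convertase of the secretory pathway, cuts into the mature ligand and a propeptide. The propeptide stays bound to the ligand and holds it inactive. LTBP1, LTBP3 and LTBP4 attach this latent complex to the extracellular matrix, whereas LTBP2 belongs to the same family but does not bind latent TGFβ. Integrins and thrombospondin-1, the product of THBS1, are among the activators that release the ligand. TGFβ is known to restrain the growth of B-cell precursors.

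The labelled cell type was checked against marker genes. All 12 B-cell precursor markers were listed in both tables, and their summed means were 54598 in clone 1 and 71996 in clone 2. MME, which encodes CD10, was the lowest of them at 67.7 and 67.0 normalized counts. None of 5 T-cell markers was listed in either table. Platelets are rich in TGF-β1 and thrombospondin-1, and of 5 platelet and megakaryocyte markers PF4 and PPBP were not listed, while GP9, ITGA2B and GP1BA summed to 130 in clone 1 and 183 in clone 2. Of 5 fibroblast markers COL1A1 was the one listed, at 145 and 214 normalized counts. Of 5 endothelial markers 4 were listed in clone 1 and 5 in clone 2, summing to 79.9 and 147. CSF1R held 615 and 768 of the summed 648 and 799 normalized counts of 4 listed monocyte and macrophage markers, CD14 stood at 2.82 and 4.06, and FCGR3A was not listed. What these markers contribute to the levels below was not tested.

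The 3 ligands were present at very unequal levels. TGFB1 had a mean normalized count of 938 in clone 1 and 1322 in clone 2, higher than 69.9% and 74.2% of all genes of the tables. TGFB3 had 33.3 in clone 1 and 39.0 in clone 2, higher than 20.2% and 25.2% of all genes. TGFB2 had 3.30 in clone 1 and 14.8 in clone 2, higher than 1.88% and 17.9% of all genes. Among genes listed in both tables, the clone 2 percentile was 11.3 for TGFB2 and 19.2 for TGFB3. TGFB2 thus lay 1.31 times above the lowest value listed in clone 1 and 13.1 times above that in clone 2.

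Because the upstream regions of the ligand genes differ in composition, the 250 bases before their starts are shown. The sequences are from RefSeq on GRCh38.p14, not on the build named for the deposited tables (hg19). They are printed in the direction of the RefSeq table. Where a window with the 50 bases after it overlapped GENCODE transcripts of its gene (TGFB1 and the upstream TGFB3 start), it matched them as printed and not as the reverse complement, and the TGFB2 and downstream TGFB3 windows had no such overlap. The windows are TGFB1 at chr19:41353923-41354172 (minus strand), TGFB2 at chr1:218345086-218345335 (plus strand), and for TGFB3 2 annotated starts at chr14:75981996-75982245 and chr14:75983012-75983261 (minus strand). Capitals mark the letters GGGCGG on either strand (a GC box, bound by factors such as SP1) and TATAAA in the printed direction only (a TATA box).
TGFB1: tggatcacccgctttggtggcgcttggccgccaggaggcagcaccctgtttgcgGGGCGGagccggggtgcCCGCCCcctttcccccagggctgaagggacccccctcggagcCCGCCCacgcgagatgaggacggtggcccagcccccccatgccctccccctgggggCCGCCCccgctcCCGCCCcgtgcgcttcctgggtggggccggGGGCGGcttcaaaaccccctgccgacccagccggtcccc
TGFB2: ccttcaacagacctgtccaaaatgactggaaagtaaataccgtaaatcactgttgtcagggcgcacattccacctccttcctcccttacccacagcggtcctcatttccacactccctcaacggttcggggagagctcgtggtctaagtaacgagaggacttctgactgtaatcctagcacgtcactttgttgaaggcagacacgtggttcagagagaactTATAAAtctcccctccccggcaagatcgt
TGFB3 downstream start: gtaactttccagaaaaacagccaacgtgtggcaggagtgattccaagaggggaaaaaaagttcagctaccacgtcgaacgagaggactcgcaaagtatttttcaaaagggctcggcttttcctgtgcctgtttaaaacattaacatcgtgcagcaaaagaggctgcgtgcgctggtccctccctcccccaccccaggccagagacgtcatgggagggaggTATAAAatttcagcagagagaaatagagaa
TGFB3 upstream start: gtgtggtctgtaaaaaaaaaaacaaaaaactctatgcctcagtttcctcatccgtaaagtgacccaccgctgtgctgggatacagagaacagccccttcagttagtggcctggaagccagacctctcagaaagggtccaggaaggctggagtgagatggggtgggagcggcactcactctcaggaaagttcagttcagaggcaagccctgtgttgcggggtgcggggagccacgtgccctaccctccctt

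The TGFB1 window held 6 matches to GGGCGG and none to TATAAA, with 76.8% G and C. The TGFB2 window held no GGGCGG and 1 TATAAA, which began 29 bases before the start, with 50.4% G and C. The downstream TGFB3 window likewise held no GGGCGG and 1 TATAAA, at 30 bases, with 49.2% G and C, and the upstream TGFB3 window held neither motif at 54.8% G and C. The letters TGACGTCA, a cAMP response element, were searched on both strands and found in none of the 4 windows. Only exact matches were counted, and variants of this element were not searched. Among 35116 RefSeq windows of the same length, 42.6% held GGGCGG, 6.80% held TATAAA and 1.65% held TGACGTCA, and the median G and C content was 58.0%. Which starts were used in RCH-ACV cells was not analysed, and a match describes letters only. Windows of the LTBPs, thrombospondins and FURIN are not shown, and whether these motifs go with the level of a gene was not tested.

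**Figure D1:**
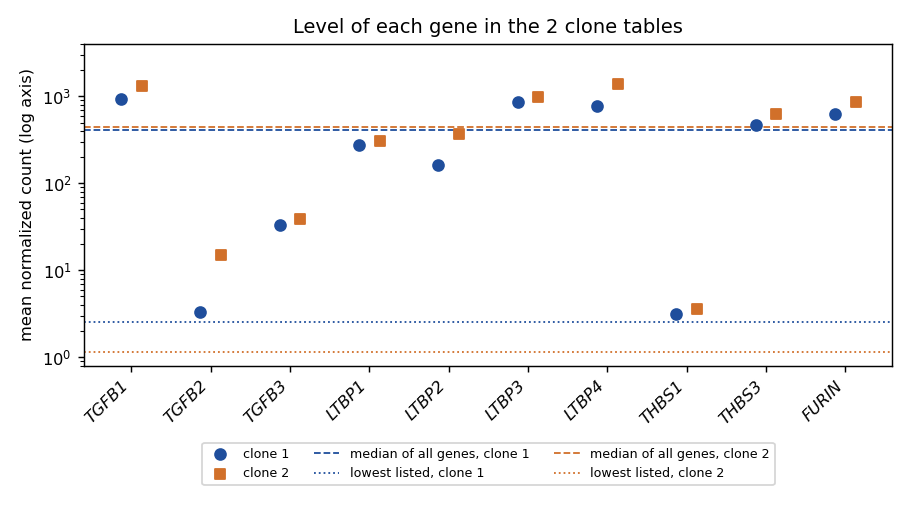
Mean normalized count of each gene (log axis) in the table of clone 1 (blue circles) and of clone 2 (orange squares), each a mean that the authors pooled over 6 libraries, without error bars. Dashed lines mark the median of all genes (406 and 442) and dotted lines the lowest listed value (2.52 and 1.13). TGFB1, LTBP3, LTBP4, THBS3 and FURIN lie above the medians in both clones, and TGFB2 in clone 1 and THBS1 in both clones lie near the floor.

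Read counts grow with transcript length, so genes were compared with each other per kilobase of the longest coding transcript in GENCODE release 29. On this scale TGFB1 (chromosome 19, 2769 bases) had 339 normalized counts per kilobase in clone 1 and 478 in clone 2. TGFB3 (chromosome 14, 2522 bases) had 13.2 and 15.5 per kilobase, and TGFB2 (chromosome 1, 5053 bases) had 0.653 and 2.93. TGFB1 therefore made up 96.1% of the summed ligand level per kilobase in clone 1 and 96.3% in clone 2. TGFB3 made up 3.75% and 3.12%, and TGFB2 0.185% and 0.591%. The level of TGFB1 per kilobase was 25.6 times that of TGFB3 in clone 1 and 30.9 times in clone 2. The order of the 3 ligands was the same in both clones.

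The latent TGFβ binding proteins formed a high pair and a low pair. LTBP3 (chromosome 11) had a mean normalized count of 863 in clone 1 and 982 in clone 2, and LTBP4 (chromosome 19) had 773 and 1389. LTBP1 (chromosome 2), the founding member of the family, had 279 in clone 1 and 306 in clone 2. LTBP2 (chromosome 14), the member that does not bind latent TGFβ, had 164 in clone 1 and 365 in clone 2. LTBP3 and LTBP4 lay above the median of all genes in both clones, and LTBP1 and LTBP2 lay below it.

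Per kilobase, LTBP3 had 194 normalized counts in clone 1 and 221 in clone 2. LTBP4 had 154 and 276 per kilobase, LTBP1 had 44.0 and 48.2, and LTBP2 had 19.1 and 42.6. LTBP3 was the highest of the family in clone 1, with 47.3% of the LTBP level per kilobase against 37.4% for LTBP4. In clone 2 the order of this pair was the other way round, with 37.6% for LTBP3 and 47.0% for LTBP4. That order in clone 2 depended on the transcript length, since with the median length over the coding transcripts of each gene, chosen after seeing the data, LTBP3 stood at 42.9% and LTBP4 at 40.8%. LTBP1 and LTBP2 made up 10.7% and 4.64% in clone 1 and 8.21% and 7.26% in clone 2. The order of this pair in clone 2 also turned with the length, to 8.94% and 10.1% per kilobase of coding sequence and 10.0% and 12.0% with no length correction.

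**Figure D2:**
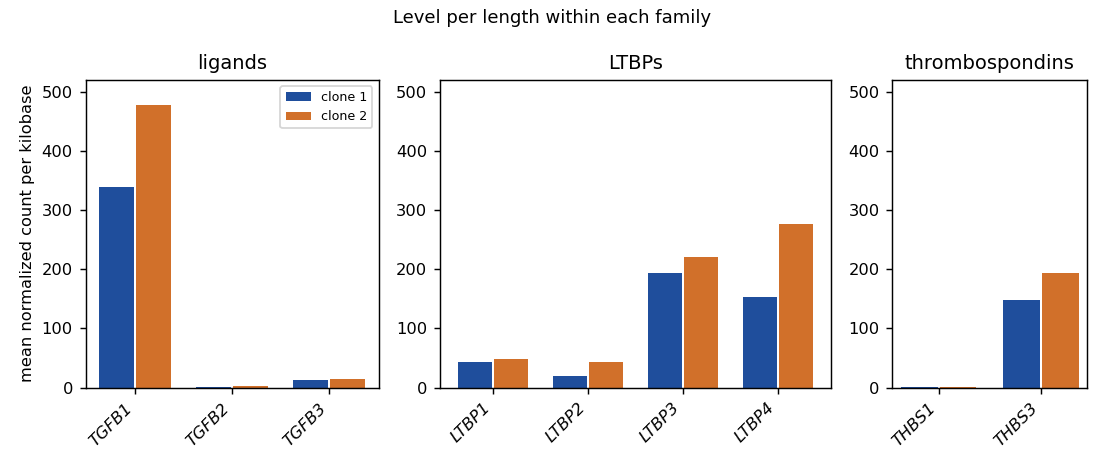
Mean normalized count per kilobase of the longest coding transcript for ligands, LTBPs and thrombospondins in clone 1 (blue) and clone 2 (orange), from means that the authors pooled over 6 libraries, without error bars. TGFB1 stands at 339 and 478 while TGFB2 and TGFB3 stay at or below 15.5, LTBP3 and LTBP4 stand above LTBP1 and LTBP2, and THBS3 stands far above THBS1.

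The thrombospondins THBS1 and THBS3 stood far apart. THBS1 (chromosome 15), which encodes the thrombospondin that activates latent TGFβ, had a mean normalized count of 3.11 in clone 1 and 3.55 in clone 2, only 1.23 and 3.13 times the lowest value listed. It lay above 1.47% of all genes in clone 1 and 7.97% in clone 2, or 1.82% in clone 2 among genes listed in both tables, since that table lists 1264 genes that the other does not. THBS3 (chromosome 1), a pentameric thrombospondin that stands on the pathway list, had 471 in clone 1 and 621 in clone 2. Per kilobase THBS3 had 147 and 194, against 0.400 and 0.457 for THBS1, and so held 99.7% and 99.8% of the level of this pair. Of the other thrombospondins, THBS4 had 43.5 and 38.5 normalized counts and THBS2 had 5.70 and 6.49, while COMP was not listed. In the annotation 25.4% of the exon bases of THBS3 overlap exons of the other strand, from MTX1 and AC234582.1, and MTX1 had 690 and 934 normalized counts. Since the strand setting of the authors' counting is not given in the sources used here, reads of THBS3 and MTX1 cannot be told apart in that overlap. For TGFB2, 26.6% of the exon bases are shared with TGFB2-OT1 on the same strand, which was not listed. Overlap with other genes covered 0% to 7.58% of the exon bases of the other 8 genes, among them 6.64% of TGFB1 with HNRNPUL1, which had 9149 and 11299 normalized counts. Against this TGFB1 had 938 and 1322, and reads of TGFB1 and HNRNPUL1 likewise cannot be told apart in their overlap. What the overlap does to the level of TGFB1 and its share of the ligands was not tested.

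FURIN (chromosome 15) had a mean normalized count of 634 in clone 1 and 871 in clone 2, above 59.8% and 64.2% of all genes. Per kilobase it stood at 146 in clone 1 and 200.4 in clone 2, so TGFB1 was 2.32 and 2.38 times as high as the protease that cuts it. Of 7 other proprotein convertases, 5 were listed in both tables and 4 of these had at least 50 normalized counts in each. MBTPS1, the site-1 protease of sterol control, was the highest at 2195 and 3133. PCSK7 followed at 1227 and 1453, PCSK6 had 278 and 508, and PCSK4 had 71.4 and 82.9. PCSK1 and PCSK2 were not listed in either table.

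The clones were set side by side after the tables were scaled to equal sums over the 15582 genes listed in both, by dividing clone 2 by 1.29. The median log2 ratio of clone 1 over clone 2 was -0.07 over the 10 genes, against -0.0048 over all shared genes. TGFB1 gave -0.13, FURIN -0.10 and THBS3 -0.04, while LTBP1 gave 0.23, LTBP3 0.18, THBS1 0.17 and TGFB3 0.14. These 7 lay between -0.33 and 0.29, the range that holds the middle 90% of the shared genes with a mean of at least 50. Of these, TGFB3 and THBS1 have means under 50 and so are not among the genes that give this range. LTBP4 gave -0.48, outside that range and inside the middle 90% of all shared genes (-0.50 to 0.53). LTBP2 gave -0.80, with 2.21% of the shared genes below it, and was 1.74 times as high in clone 2 as in clone 1. TGFB2 gave -1.80 and was 3.49 times as high in clone 2, but its clone 1 value rests on a mean of 3.30. Each mean pools resistant and sensitive cells. A difference between the clones and a difference in their change with resistance therefore cannot be told apart in these ratios. No test of the clones was possible on pooled means. The library titles carry the letter A for clone 1 and B for clone 2 beside codes that both clones share, except TGACCA in clone 1 and ACAGTG in clone 2. What the letter stands for is not given, so clone and anything it marks cannot be told apart.

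**Figure D3:**
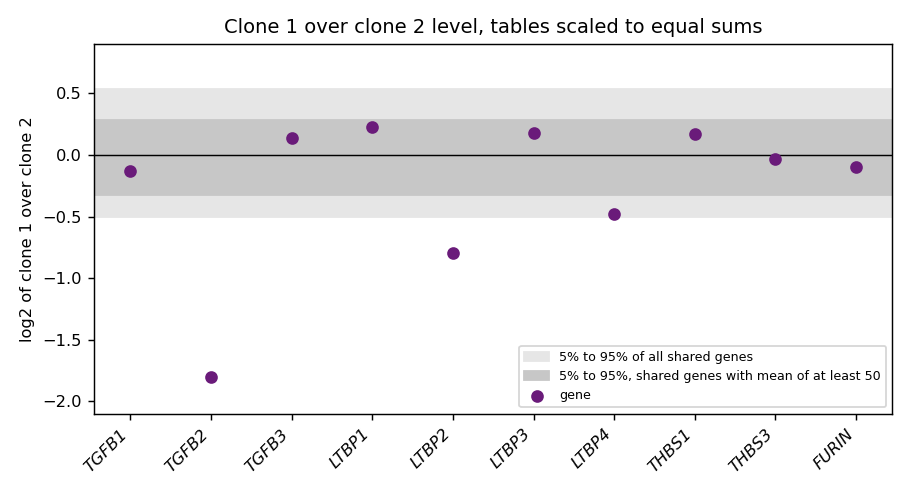
Log2 ratio of the clone 1 over the clone 2 mean normalized count for each gene (points), with both tables scaled to equal sums over shared genes and no replicate error. The light band holds the middle 90% of all shared genes (-0.50 to 0.53) and the dark band that of shared genes with a mean of at least 50 (-0.33 to 0.29). LTBP2 at -0.80 and TGFB2 at -1.80 lie outside both bands, and LTBP4 at -0.48 outside the dark one.

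Genes that receive or release TGFβ were taken from lists chosen with earlier results of these data known. Among 5 receptors and co-receptors, 4 were listed in clone 1 and 5 in clone 2. The type II receptor TGFBR2 had 2362 in clone 1 and 3261 in clone 2, the co-receptor ENG had 1096 and 1673, the type I receptor TGFBR1 had 598 and 904, and the co-receptor TGFBR3 had 135 and 88.9. ACVRL1 was listed in clone 2 alone, at 1.71. Of 4 SMADs, the intracellular effectors, SMAD2, SMAD3 and SMAD4 had between 1365 and 2154 normalized counts in both tables, and the inhibitory SMAD7 had 42.0 and 46.4.

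Cell-surface handling of latent TGFβ was represented by one anchor and a few integrin chains. NRROS, an anchor of latent TGF-β1 on myeloid cells, had 1131 in clone 1 and 1180 in clone 2, and LRRC32, the anchor on regulatory T cells, was not listed. The integrin chain ITGB1 had 3818 and 4742 normalized counts, its partner ITGAV had 510 and 601, and ITGB3 had 103 and 253. ITGB6 was not listed and ITGB8, a chain that activates latent TGF-β1, was listed in clone 2 alone at 2.19. Of 14 matrix proteins and proteases, 9 were listed in clone 1 and 12 in clone 2. EMILIN1, a matrix protein that restrains processing of the TGFβ precursor, had 3658 and 3175. The procollagen protease BMP1 had 501 and 620, MMP14 had 384 and 244, and MMP2 had 236 and 286. FBN1, which encodes the fibrillin to which LTBPs attach, had 39.3 and 68.2, and FBN2 and FBN3 were listed in clone 2 alone at 2.80 and 1.87. The genes not listed in a table, FBN1 and the overlapping genes MTX1, AC234582.1, TGFB2-OT1 and HNRNPUL1 were picked after their values were seen, as were ITGB5, MMP9 and ASPN, which had the lowest levels among the activators and matrix genes listed in both tables.

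**Figure D4:**
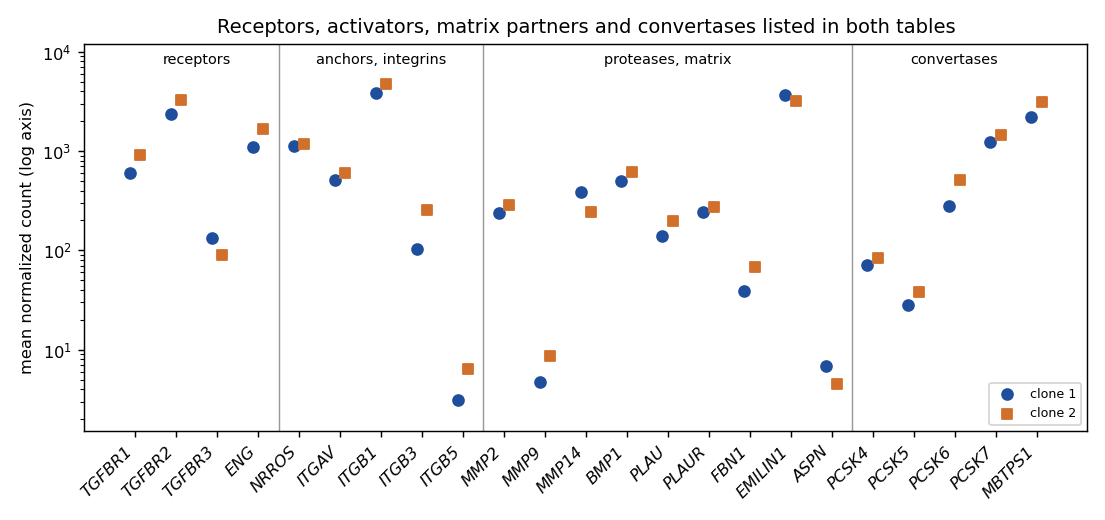
Mean normalized count (log axis) of receptors, cell-surface anchors and integrins, proteases and matrix partners, and proprotein convertases listed in both tables, in clone 1 (blue circles) and clone 2 (orange squares), each pooled by the authors over 6 libraries. ITGB1, EMILIN1, TGFBR2 and MBTPS1 are the highest, between 2195 and 4742 normalized counts, and ITGB5, MMP9 and ASPN stay under 10.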

How the data were processed

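Libraries were made with a stranded mRNA kit (RNeasy columns for the RNA). Without giving their roles, the submitters' processing notes list the genome hg19, DESeq2, FastQC 0.10.1, Picard 1.107, SAMtools, bedtools 2.19.0 and BWA in the versions 0.7.7-r441 and 0.6.2-r126. How genes were annotated and counted, and whether strand was used, is not given in the sources used here. Each clone table holds 1 signal per gene, which by its column name is the mean normalized count that the authors deposited over the 6 libraries of a clone. The other 7 value columns of a comparison (log2 fold change, its standard error, Wald statistic, p-value, adjusted p-value, a direction label and a log10 value) are the authors' own results and were not used. No column held a single library, so the planned test of counts was not run. Depth per library, and the precision it gives, is therefore unknown.

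Symbols shared by 2 rows of a table were left out. Percentiles give the share of genes of a table with a lower mean. Lengths and exon overlaps came from GENCODE release 29 (GRCh38), matched by symbol for 86.1% and 85.1% of the genes, and promoters from RefSeq. Clones were scaled to equal sums over shared genes, and the scaling code was tested on simulated data. Python 3.11.15, pandas 2.3.3 and matplotlib 3.10.9 were used. Named genes were all 10 members and, per context list, up to 4 genes with the highest mean, with exceptions named, the rest of each list being given by counts, and 1 gene taken off a list is not reported here. The members and lists were chosen with earlier results of these data known. Alternatives covered the scaling, an added count, low-value filters and the length.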

Additional observations from a re-analysis of the deposited data

How the results depend on the processing

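No paired analysis was possible because the deposited values are means over the libraries of a clone, and leaving out a replicate was not run for the same reason. Pooled means have no spread, so a change of 0.1 on the log2 scale, of 5 percentage points or, for percentages, of 1.5 times was taken as a move. With the means as deposited and no scaling, the median log2 ratio of clone 1 over clone 2 was -0.43, and the ratio turned negative for TGFB3 (-0.23), LTBP1 (-0.13), LTBP3 (-0.18) and THBS1 (-0.19), as every ratio shifts by the same 0.36. The median ratio over shared genes and the sum without the top 1% moved none of 11 results each. Adding 1 count moved TGFB2 alone, to -1.54. The share of LTBP3 among LTBPs was 41.5% in clone 1 and 32.3% in clone 2 with no length correction, and 52.6% and 42.9% with the median transcript length. Coding lengths moved 4 of 18 shares, TGFB2 to 0.299% in clone 1 and 0.952% in clone 2 and THBS1 to 0.536% and 0.465%. No length correction moved 8 of 18, among them THBS1 to 0.655% and 0.569%. Counting percentiles over genes listed in both tables moved TGFB2, TGFB3 and THBS1 in clone 2, to 11.3, 19.2 and 1.82. Leaving genes under 10 normalized counts out of the percentiles moved 11 of them and left 8, since fewer low genes remain. With a limit of 50, 14 moved and 2 did not, the 2 being the medians over those of the genes described that pass the limit. At 50 these are 7 of the 10 genes in each clone, and at 10 they are 8 in clone 1 and 9 in clone 2. The medians with and without a limit thus cover different genes, and their likeness does not show that the levels held. THBS3 fell below the median of the remaining genes, to 47.7 in clone 1 and 49.1 in clone 2 with the limit of 10. With the limit of 50 it stood at 38.7 and 40.9, and FURIN in clone 1 at 47.4. These filters give no percentile for THBS1, for TGFB2 in clone 1 or, at 50, for TGFB2 and TGFB3 in either clone.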
